A study of Mus musculus with 12 samples.

Results

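The Spata (spermatogenesis associated) and Tex (testis expressed) genes are named for where they were found, and their proteins share no common fold or pathway. The genes described here are those whose symbol in the array annotation is Spata or Tex followed by a digit, with Tex12 left out. They numbered 61 of the 19057 genes with a named probe, 28 of them Spata and 33 Tex genes, and were measured by 93 probes. Each gene is given by its probe of highest mean intensity over the 12 arrays, and 40 of the genes had 1 probe. For counting, 7 genes were listed under meiotic prophase, 25 under spermatids, the flagellum and sperm and 11 as broadly expressed, and 18 were put in none of these lists. The lists are loose groupings and not established roles. Tex14 and Tex101, listed under meiotic prophase, are described below by other roles, and the function of Tex36, in the sperm list, is little known.

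The genes were measured in whole testes of C57Bl/6N mice that were wild-type (WT) or carried the Topaz1-/- knockout (KO), at postnatal day 15 (P15) or 20 (P20). WT P15, KO P15, WT P20 and KO P20 made up the 4 groups, and the labels call the 3 samples of a group biological repeats. Biotin-labelled total RNA of each testis sample was read on its own Illumina mouse bead array. Topaz1 is a germ cell gene that male meiosis needs, per the title of the series.

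In the mouse testis the first wave of germ cells passes through meiosis together, so that juvenile age stands for the most advanced germ cell present. Spermatocytes recombine and pair their chromosomes in meiotic prophase, and after the divisions round spermatids build the acrosome, a secretory vesicle capping the nucleus, and the flagellum. Many genes of the acrosome and flagellum are already transcribed in pachytene spermatocytes, before the structures form. In whole testis RNA, fewer cells of a type and less RNA per cell cannot be told apart.

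Values are log2 intensities after quantile normalization with an offset of 50, which makes fold changes of dim probes too small. A probe was called above background where it exceeded a threshold set for each array, with a median of 7.53 over the arrays. By that measure 35 of the 61 genes were above background on all 3 arrays of at least 1 group, and the other 26 were not. Of all 19057 named genes, 12080 were above background in this way. Arrays had raw median intensities of 128.2 to 143.4. No probe was annotated to Topaz1 (0 probes), so the genotype labels were not checked against the targeted gene. The Sertoli cell markers, 6 of the 7 listed, were above background on every array, as were pachytene spermatocyte markers at P20 (5 of 6 on each array, the probe of Sycp3 being the exception). The protamine gene Prm2 was not measured, and Tnp2, a transition protein of late spermatids, was above background on 0 of 12 arrays. On the second principal component KO P15 replicate 1 scored 7.6, among the WT P15 arrays (5.6 to 11.4), whereas KO P15 replicates 2 and 3 scored -14.9 and -20.3. On the first component, the axis of age, the score of WT P20 replicate 1 was 31.3, while WT P20 replicates 2 and 3 scored 42.7 and 51.5 and the KO P20 samples 51.4 to 57.0. The 5 epididymis markers summed to 2508 and 3060 in linear intensity on KO P20 replicates 1 and 3, and to 635.9 on replicate 2 and 600.4 to 861 in WT P20. Only Defb2 (10.83 and 11.14) and Adam7 (8.66 and 9.08) of the 5 were above background on those KO arrays. The same 2 markers were above background on WT P20 replicate 3 (8.62 and 7.70), the array with the sum of 861. For several genes near the threshold between genotypes, values without WT P20 replicate 1 and without KO P20 replicates 1 and 3 are given beside the result. The second of these leaves 1 KO P20 array, so only the change is given for it.

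The comparison of KO with WT asks which of these genes the loss of Topaz1 alters. At P15, 0 of the 61 genes passed the test (limma, Benjamini-Hochberg adjusted p under 0.05 over all probes), where 0.00525% of all named genes did, and 2 (3.28%) had an unadjusted p under 0.05, against 8.72% of all named genes. The median change of the 61 was 0.02 on the log2 scale, against 0.01 over all named genes, within a range of -0.37 to 0.33. KO arrays lay wholly above WT arrays for 3 genes (Spata2, Spata31d1d and Tex264) and wholly below for 1 (Tex45), against 6.22% and 4.86% of all named genes. At P20, 2 genes rose in KO, Spata4 and Spata16, and 0 fell, where 1.41% of all named genes changed, 1% upward and 0.409% downward. The other 59 did not pass, and 10 of the 61 (16.4%) had an unadjusted p under 0.05, against 15.2% of all named genes. The median change at P20 was -0.01, against 0 over all named genes, within a range of -0.69 to 0.62. KO arrays lay wholly above WT arrays for 9 genes and wholly below for 7, against 10.7% and 9.95% of all named genes, so these shares were near the background. For the difference between the genotype effects at the 2 ages 0 genes passed, against 0.0735% of all named genes, and 10 (16.4%) had an unadjusted p under 0.05, against 8.89%.

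**Figure D1:**
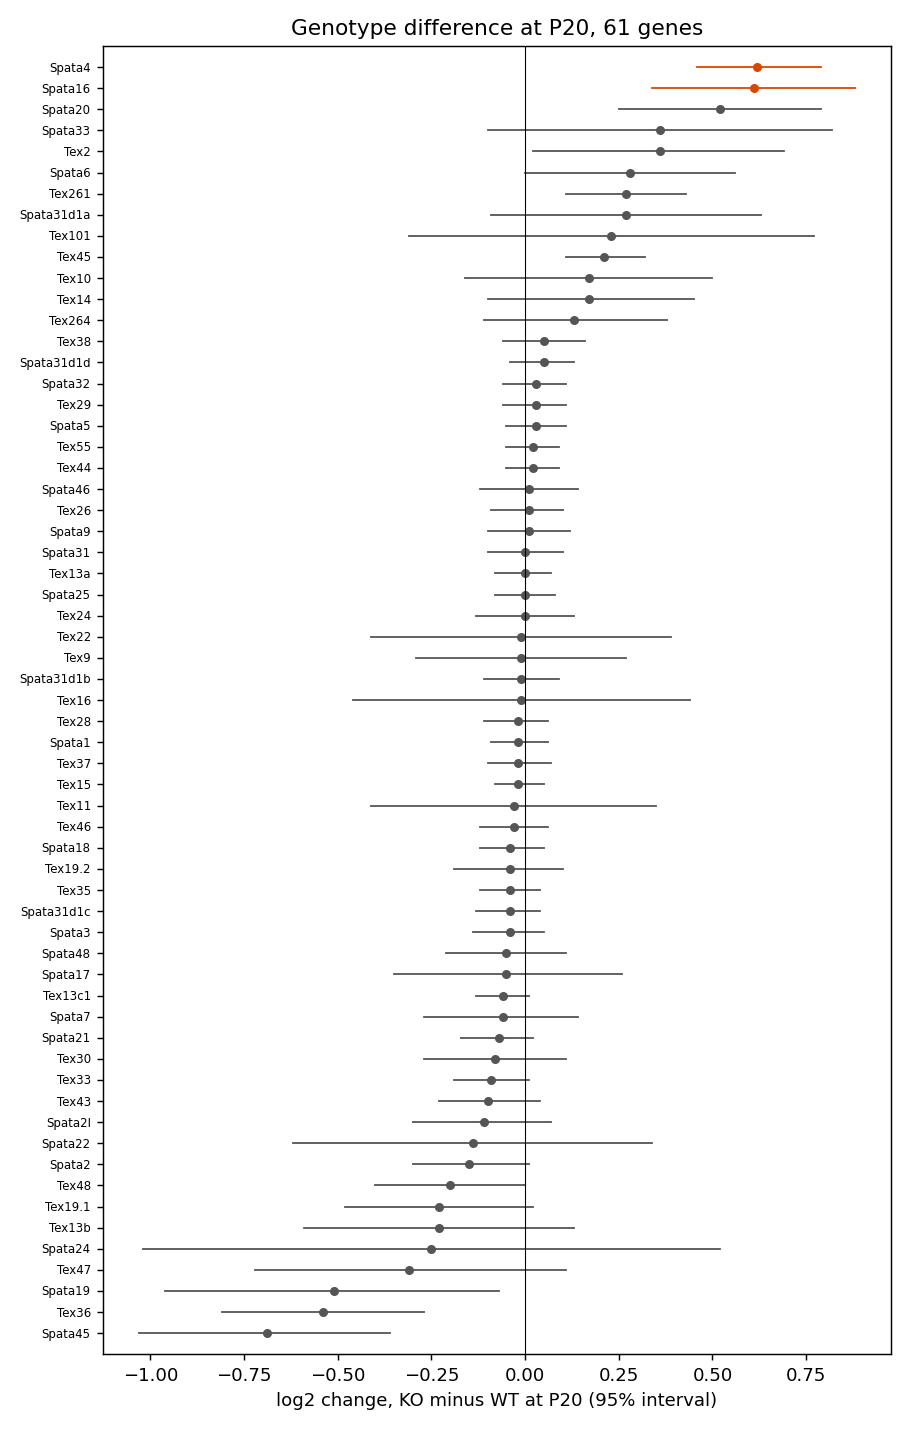
Log2 change in KO against WT at P20 (horizontal axis) for each of the 61 genes (vertical axis, ordered by change), with points for the fitted change and lines for the 95% interval, and the 2 genes past the test in orange. Spata4 (0.62) and Spata16 (0.61) lie at the top, and Spata45 (-0.69) and Tex36 (-0.54), which did not pass, at the bottom.

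With age, 23 of the genes passed the test in WT, where 27.7% of all named genes did, and 24 passed in KO, against 35.1%. From P15 to P20 in WT, 20 genes rose and 3 fell, where 11.2% of all named genes rose and 16.5% fell. In KO 18 rose and 6 fell, against 13.5% and 21.6%. All P20 arrays lay above all P15 arrays for 30 genes in WT and 22 in KO, against 17% and 17.1% of all named genes, and below them for 2 and 7, against 27.5% and 26.5%. The median age change of the 61 was 0.07 in WT and 0.03 in KO, against -0.02 over all named genes in each genotype. In the spermatid, flagellum and sperm list 10 of 25 rose and 0 fell in WT, and 9 rose and 1 fell in KO. Of the 7 genes in the meiotic prophase list 1 rose and 2 fell in WT, and 2 rose and 2 fell in KO. Of the 11 broadly expressed genes 3 rose in each genotype, with 0 falls in WT and 1 in KO.

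Spata4, a gene expressed mainly in testis germ cells, and Spata16, whose protein moves from the Golgi to the acrosome and is mutated in some men with round-headed sperm, were the 2 genes that rose in KO at P20. Their promoters are shown because they are the 2 genes past the genotype test, with that of Tex36, a gene of the same list that read lower in KO, for comparison. The windows, from RefSeq with build GRCm38.p6, run from 250 bases before to 50 after the gene start, in the direction of the gene. Spata4 lies at chr8:54600531-54600830 (+ strand), Spata16 at chr3:26637381-26637680 (+ strand) and Tex36 at chr7:133602066-133602365 (- strand). Capitals mark the core motif of A-MYB, a regulator of pachytene transcription (AACNGNC or its reverse complement), in Spata4 and Spata16, and a short form (TGACGT or its reverse complement) of the cAMP response element, to which the spermatid regulator CREM binds, in Tex36.
Spata4: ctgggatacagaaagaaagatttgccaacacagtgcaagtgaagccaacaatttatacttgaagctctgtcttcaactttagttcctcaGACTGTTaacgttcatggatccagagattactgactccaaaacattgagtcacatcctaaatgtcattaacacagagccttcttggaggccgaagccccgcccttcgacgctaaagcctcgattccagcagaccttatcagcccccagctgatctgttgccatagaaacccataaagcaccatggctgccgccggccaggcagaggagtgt
Spata16: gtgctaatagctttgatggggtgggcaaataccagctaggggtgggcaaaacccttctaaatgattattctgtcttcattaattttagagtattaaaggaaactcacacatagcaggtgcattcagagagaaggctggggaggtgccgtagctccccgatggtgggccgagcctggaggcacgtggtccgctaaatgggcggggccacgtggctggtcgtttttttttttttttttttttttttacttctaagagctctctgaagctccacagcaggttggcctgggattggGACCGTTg
Tex36: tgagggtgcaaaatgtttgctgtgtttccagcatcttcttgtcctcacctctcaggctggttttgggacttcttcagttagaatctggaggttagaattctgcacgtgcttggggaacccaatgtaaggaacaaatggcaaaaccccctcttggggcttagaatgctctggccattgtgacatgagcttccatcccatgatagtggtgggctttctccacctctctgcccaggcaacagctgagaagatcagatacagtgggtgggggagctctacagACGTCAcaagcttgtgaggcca
Both strands were searched in the 63 windows of the 52 genes that had one. The A-MYB core was in 26 of them (41.3%), against 32.8% of all 32851 windows of the table, and in 11 of the 22 windows of genes that rose with age in WT. The short form was in 9 windows (14.3%), against 7.51% of all windows, and in 6 of those 22. The full element TGACGTCA, whose letters contain the short form, was in 1 window (1.59%), against 1.79%. A match describes the letters of a window and is not a binding site.

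The probe of Spata4 read 8.58, 8.81 and 8.77 on the 3 WT P20 arrays and 9.34, 9.37 and 9.33 on the 3 KO P20 arrays. Every KO array lay above every WT array, and at P15 all 6 arrays were between 7.31 and 7.52, below background. The KO level at P20 was higher by 0.62 ± 0.07 (SE, n = 3 per group), or 1.54-fold, with a 95% interval of 0.46 to 0.79 and an adjusted p of 0.00542 in limma. At P15 the difference was -0.01 ± 0.07. The effects at the 2 ages differed by 0.63 ± 0.11, with an adjusted p of 0.0864, so that this difference did not pass. With WT P20 replicate 1 left out the P20 change was 0.55 (limma adjusted p = 0.0096). Without KO P20 replicates 1 and 3, which leaves 1 KO P20 array, it was 0.65.

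Spata16 read 10.12, 10.10 and 10.54 in WT P20 and 10.77, 10.98 and 10.85 in KO P20. The groups did not overlap, with WT replicate 3 nearest to the KO arrays. The change was 0.61 ± 0.12 (1.53-fold, 95% interval 0.34 to 0.88, limma adjusted p = 0.0482), just inside the threshold, and it passed in 10 of 25 alternative settings. Without WT P20 replicate 1 it was 0.55, with an adjusted p of 0.143 in limma. With KO P20 replicate 2 as the only KO P20 array it was 0.72. A further Spata16 probe, ILMN_1236529, read 8.07, 7.98 and 8.11 in WT P20 and 8.56, 8.56 and 8.43 in KO P20, again without overlap. Its change was 0.47 ± 0.04 with a limma adjusted p of 0.00144, and the third Spata16 probe was above background on 0 of 12 arrays.

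Other genes of this list that read higher in KO at P20 did not pass. Spata20, which encodes a protein with a thioredoxin-like domain, read 8.06, 8.24 and 8.67 in WT P20 and 8.76, 8.88 and 8.87 in KO P20. The groups were separate, and the KO arrays were tightly spaced while the WT arrays were not. The change was 0.52 ± 0.12 (limma adjusted p = 0.087), and it passed in 3 of 25 alternative settings. It was 0.69 without WT P20 replicate 3 (limma adjusted p = 0.0019) and 0.38 without WT P20 replicate 1 (limma adjusted p = 0.187). With KO P20 replicate 2 as the only KO P20 array it was 0.56. The further Spata20 probe read 7.66, 8.01 and 8.41 in WT P20 and 8.22, 8.45 and 8.32 in KO P20. Its groups overlapped, with a change of 0.30 (limma adjusted p = 0.465). Spata33, which anchors the phosphatase calcineurin to sperm mitochondria, differed by 0.36 (adjusted p = 0.561 in limma), with overlapping groups. Spata6, needed for the connecting piece between sperm head and tail, differed by 0.28 (limma adjusted p = 0.418). Of the 6 pachytene spermatocyte markers 1 rose in KO at P20 (Ovol1, 0.41), Adam3 and Piwil1 read 0.53 and 0.33 higher without passing, and Ldhc, Pgk2 and Sycp3 differed by 0.05, 0.04 and 0, with a summed intensity of 49270 to 56960 in WT and 60560 to 61110 in KO. Summed Sertoli markers were 34450 to 37160 in WT P20 and 27340 to 28980 in KO P20, with all 6 changes below 0 and 1 of them, Cst9, past the test. Of 3 adipocyte markers 2 rose in KO, Adipoq by 1.27 and Lpl by 1.22, and Plin1 differed by -0.05 with overlapping groups. The 3 summed to 691.1 to 937.1 in WT P20 and 1712 to 1850 in KO P20. Spermatogonia markers summed to 3665 to 4194 in WT P20 and 2986 to 3149 in KO P20, with 0 of 6 past the test. Their directions were mixed: Uchl1 and Kit were lower in KO (-0.73 and -0.44), and Id4 was higher (0.44), each without overlap. Stra8, Zbtb16 and Gfra1 differed by 0.02, -0.08 and -0.06. The part of these cell types in the changes of Spata4 and Spata16 was not tested.

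**Figure D2:**
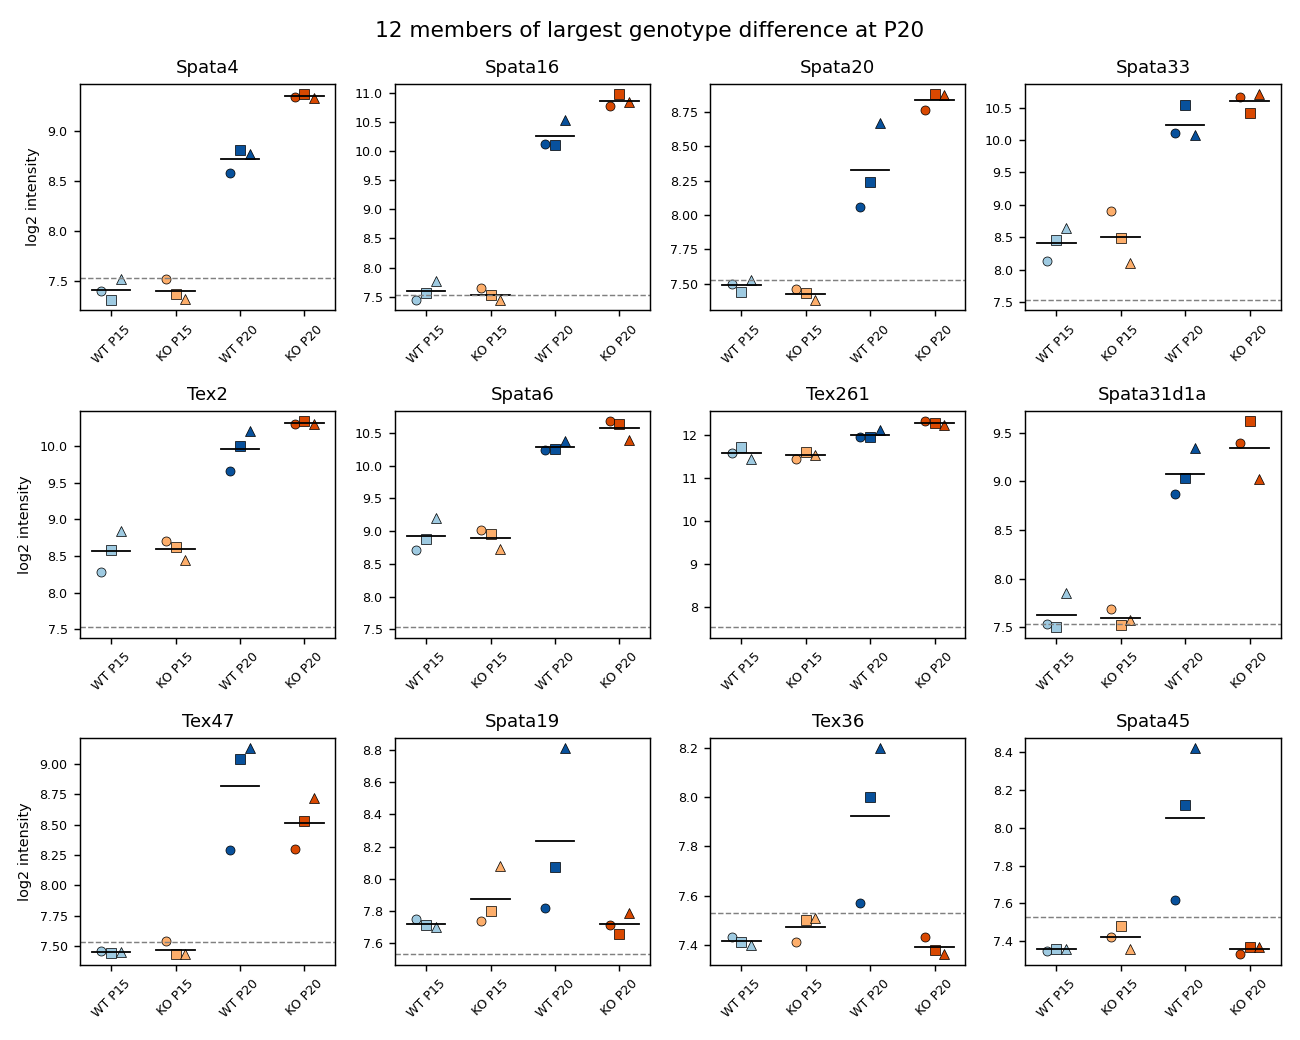
Log2 intensity (vertical axes, scaled per gene), by group, of the 12 genes with the largest change at P20 among those above background in a whole group. Circles, squares and triangles are replicates 1, 2 and 3, bars are group means and the dashed line is the median background threshold of 7.53. In Spata4 and Spata16 the KO P20 points lie above all WT P20 points, and in Spata45 and Tex36 they lie at the P15 level.

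Tex36 and Spata45, both dim, were above background on 3 WT P20 arrays and 0 KO P20 arrays. Tex36, a testis gene whose function is little known, read 7.57, 8.00 and 8.20 in WT P20 and 7.43, 7.38 and 7.36 in KO P20. The WT arrays were all above background and the KO arrays were at the level of P15 (7.40 to 7.51). The change was -0.54 ± 0.12 and did not pass (limma adjusted p = 0.0727), and by the bound at background WT was at least 1.31-fold higher. Spata45, an uncharacterised gene outside the role lists, gave 7.62, 8.12 and 8.42 in WT P20 and 7.33, 7.37 and 7.37 in KO P20. All 6 P15 arrays lay between 7.35 and 7.48, so WT P20 stood apart from the other 3 groups. Its change was -0.69 ± 0.15 (limma adjusted p = 0.0648), or at least 1.43-fold. Both were lowest in WT P20 replicate 1, the array with the lowest score of the WT P20 group on the first component (31.3, against 42.7 and 51.5). With it left out the changes were -0.71 for Tex36 and -0.91 for Spata45, with limma adjusted p of 0.000767 and 0.000799. Without WT P20 replicate 3, the highest array, they were -0.40 and -0.51 (limma adjusted p = 0.112 and 0.078). With KO P20 replicate 2 as the only KO P20 array they were -0.55 and -0.68. Each of them did not pass in 20 of 25 alternative settings.

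Spata19, a protein of the mitochondrial sheath of the sperm midpiece, followed the same order of arrays, though it was above background on all 12. It read 7.82, 8.07 and 8.81 in WT P20 and 7.71, 7.66 and 7.79 in KO P20, and KO P15 replicate 3 (8.08) was as high as the middle WT array. The change of -0.51 ± 0.20 did not pass (limma adjusted p = 0.33), and it was -0.23 without WT P20 replicate 3. Tex48 read 7.46, 7.61 and 7.86 in WT P20 against 7.35 to 7.55 in KO P20, with overlapping groups. The summed intensity of 7 of the 8 round spermatid markers followed that order too, with 1064, 1329 and 1442 in WT P20 against 988.3 to 1022 in KO P20, 1034 to 1096 in WT P15 and 991.7 to 1040 in KO P15. Within the list 0 of 7 passed: Odf1 (-0.59), Spaca1 (-0.45) and Acrv1 (-0.45, above background on 0 of the KO arrays) were lower in KO at P20 without overlap, Tnp1, Tssk2 and Tnp2 differed by -0.01, -0.01 and -0.02, and Prm1 by 0.07. The part of round spermatids in the values of Tex36, Spata45 and Spata19 was not tested.

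**Figure D3:**
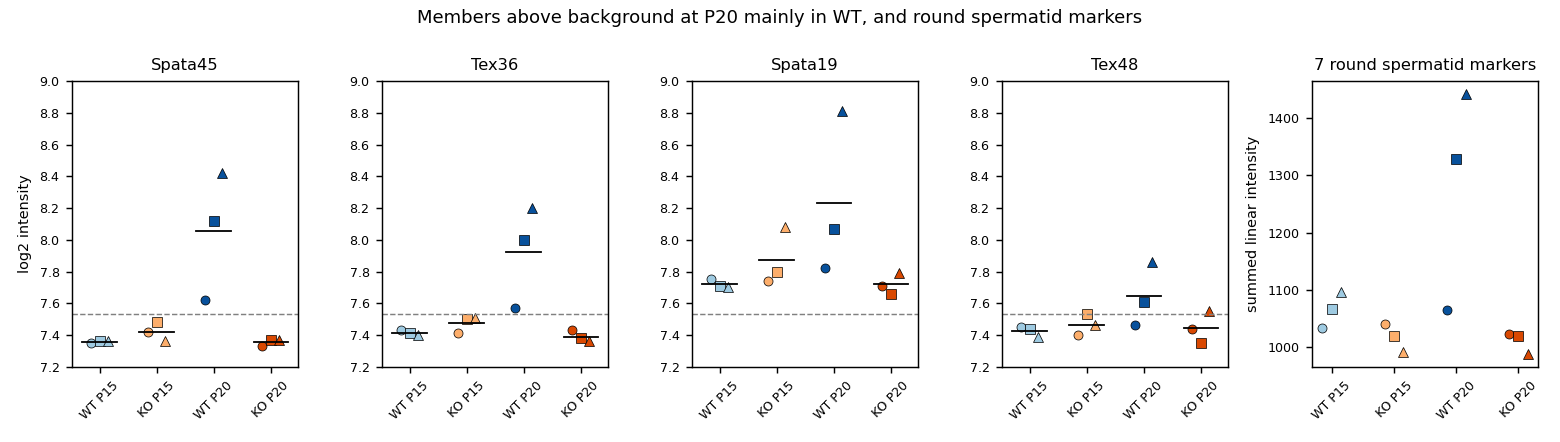
Log2 intensity of Spata45, Tex36, Spata19 and Tex48 by group (circles, squares and triangles for replicates 1, 2 and 3, bars for means, dashed line for background) and, in the last panel, the summed linear intensity of 7 round spermatid markers. In each panel WT P20 replicate 1 is the lowest and replicate 3 the highest of the WT P20 arrays.

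With age, Tex22 had the largest rise in both genotypes. This testis gene of the sperm list read 7.48, 7.56 and 7.71 in WT P15 and 11.18, 11.83 and 11.95 in WT P20. In KO P20 it read 11.51, 11.53 and 11.89, within the WT range. The rise was 4.07 in WT (16.8-fold, limma adjusted p = 4.13e-07) and 4.10 in KO (17.1-fold). The genotype difference at P20 was -0.01, with an interval of -0.41 to 0.39, so a difference of up to about that size could not be seen with 3 arrays per group. Spata16 followed, up 2.66 in WT (6.34-fold) and 3.33 in KO (10.1-fold). At P15 both genes were above background on 2 of 3 WT arrays and 1 of 3 KO arrays, so these folds are taken from levels close to background.

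Spata24, a coiled-coil protein gene, rose by 2.25 in WT and 2.36 in KO, and its 2 further probes also passed in WT. Spata33 rose by 1.82 and 2.10. Its further probe, dimmer but above background on all arrays, rose by 0.31 in KO, and its 0.13 in WT did not pass (limma adjusted p = 0.0657). Spata6 rose by 1.36 and 1.67, and its 3 further probes did not all share that rise (0.18, 0.03 and -0.01 in WT). Spata4 went from below to above background, by at least 2.28-fold in WT and at least 3.51-fold in KO. Spata20 rose by at least 1.73-fold and at least 2.47-fold, and Spata18, a regulator of mitochondrial quality, by at least 1.07-fold and 1.04-fold. Spata32, a gene of the acrosome, passed at 0.13 and 0.16 but was above background on 0 of 12 arrays, and Tex36 rose in WT by at least 1.31-fold. Of the list 2 genes (Tex21 and Tex40) were not measured. Among those that did not pass, Spata3, Spata25, Spata31, Tex26, Tex29, Tex35, Tex37 and Tex44 were above background on 0 of 12 arrays, not well above background. Spata9, Spata21, Tex38 and Tex43 passed background on 1 to 3 arrays and Spata46 on 6, and their age changes in WT lay between -0.03 and 0.13. Tex33, a gene of the sperm axoneme, fell in KO by at least 1.04-fold. The call of this fall was lost in 8 of 25 alternative settings. That of the rise of Spata18 in KO was lost in 8 of 25, and that of Spata32 in WT in 9 of 24.

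**Figure D4:**
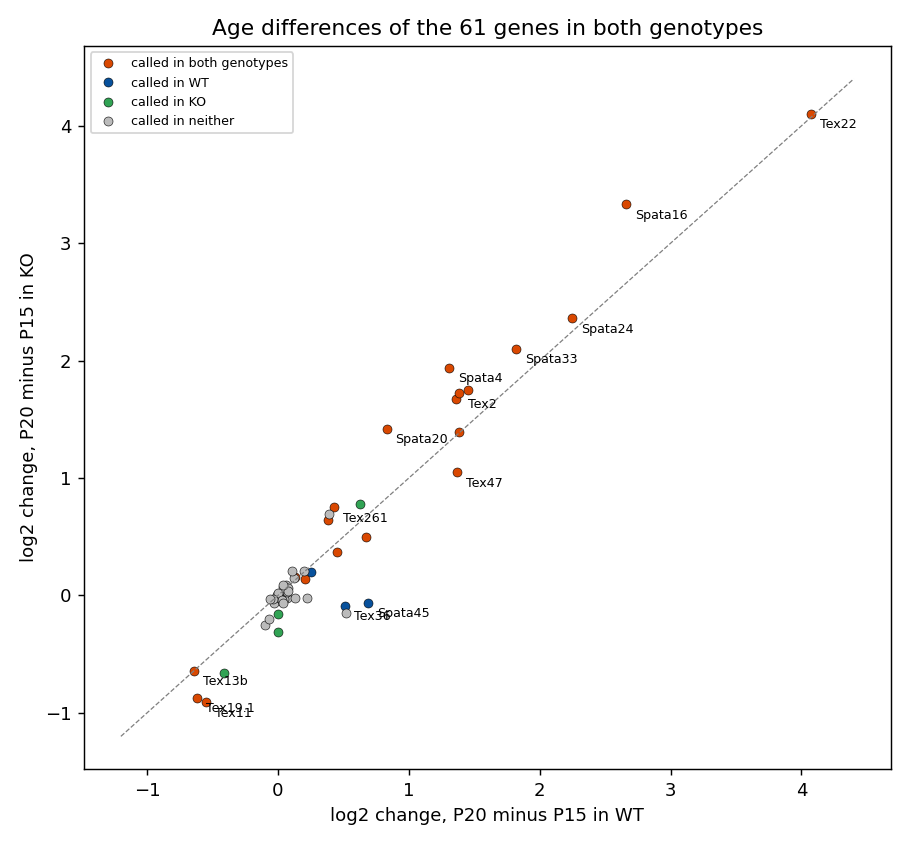
Log2 change from P15 to P20 in WT (horizontal axis) against that in KO (vertical axis) for the 61 genes, coloured by where the change passed the test, with a dashed line of equal change. Tex22 (4.07 and 4.10) lies on the line, Spata16 and Spata4 above it, and Spata45 and Tex36, which passed in WT, below it.

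Of the genes in the meiotic prophase list 6 were above background on all 12 arrays, and Tex15, a DNA repair and transposon silencing gene, on 0 of 12. No gene of the 7 passed between genotypes at either age, and the largest change at P20 was 0.23 in absolute size. Tex101, a surface protein that sperm need to process ADAM3, read 11.72, 11.50 and 11.50 in WT P20 and 11.72, 11.74 and 11.95 in KO P20, and the change of 0.23 had a limma adjusted p of 0.809. Tex14, which keeps intercellular bridges open, read 10.98 to 11.03 in WT P20 and 11.16 to 11.23 in KO P20, a change of 0.17 (limma adjusted p = 0.68). Tex19.1, a partner of the ubiquitin ligase UBR2, fell with age by 0.62 in WT and 0.87 in KO. The paralog Tex19.2 rose by 0.45 in WT and 0.37 in KO. Since the pair has similar sequence, probe cross-reaction cannot be told apart from the transcripts' own levels.

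Spata22, the partner of the recombination factor MEIOB, rose by 0.78 in KO (limma adjusted p = 0.0214), and its 0.63 in WT did not pass (adjusted p = 0.0674 in limma). At P15 it read 8.58, 8.55 and 8.65 in WT and 8.83, 8.37 and 7.71 in KO, 1 low array apart, a change of -0.29 ± 0.22, and 0.01 without that array. The rise in KO rests on the same array in part, being 0.49 without it (limma adjusted p = 0.0202), and it was lost in 5 of 25 alternative settings. Tex11, an X-linked gene needed for chromosome pairing and crossing over, fell by 0.55 in WT (limma adjusted p = 0.0447) and 0.91 in KO. At P15 it read 10.07, 10.33 and 10.53 in WT and 10.51, 10.82 and 10.61 in KO, overlapping by 1 pair of arrays, with a change of 0.33 ± 0.17 (limma adjusted p = 0.701). The fall in WT was lost in 12 of 25 alternative settings. Of the 6 X-linked genes 2 fell in WT and 3 in KO (Tex13b and Tex16 with Tex11 in KO), where 216 and 292 of all 710 X-linked named genes fell.

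Among the broadly expressed genes Tex261, Tex2 and Tex9 rose with age in both genotypes. Tex2, a lipid transfer protein of the endoplasmic reticulum, read 8.29, 8.59 and 8.84 in WT P15 and 9.66, 10.00 and 10.21 in WT P20, a rise of 1.38, and rose by 1.72 in KO. The WT P20 arrays overlapped none of the KO P20 arrays (10.30, 10.34 and 10.30), yet the change of 0.36 had a limma adjusted p of 0.38. The further Tex2 probe, dimmer but above background on all arrays, rose with age by 0.23 in WT and 0.29 in KO, and differed by 0.04 between genotypes at P20. Tex9 rose by 0.67 and 0.50. Spata2, which links CYLD to the linear ubiquitin ligase, fell in KO by 0.31. Tex264, a receptor for digestion of the endoplasmic reticulum, had the fourth largest change at P15, 0.27 ± 0.11 (limma adjusted p = 0.626), with WT at 10.35, 10.39 and 10.39 and KO at 10.62, 10.40 and 10.93. The further Tex264 probe, dimmer but above background on all arrays, differed by 0.04 at P15 and -0.22 at P20, with overlapping groups at each age. Tex10, a protein of the complex that processes ribosomal RNA with PELP1 and LAS1L, Tex30 and Spata7, which photoreceptor cilia need, were above background on all 12 arrays with no change past the test. Spata2l was above background on 6 arrays, and Spata1 and Spata5 on 0. Spata13 and Spata5l1 were not measured.

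Tex261, which encodes a protein of transport between the endoplasmic reticulum and the Golgi, had 4 probes above background on all arrays, and they did not agree on its direction with age. The representative probe, annotated to the RefSeq transcript, read 11.97, 11.95 and 12.13 in WT P20 and 12.33, 12.29 and 12.24 in KO P20. The groups were separate by a narrow gap, and the change of 0.27 ± 0.07 did not pass (limma adjusted p = 0.134). Probe ILMN_1257135, annotated to another record, read 11.23, 11.18 and 11.13 in WT P20 and 12.33, 12.30 and 12.04 in KO P20. That is 1.04 ± 0.10 higher, or 2.06-fold (limma adjusted p = 0.0015), with the groups well apart. Probe ILMN_1212663, also annotated to another record, was 0.77 ± 0.12 higher (limma adjusted p = 0.019). Without WT P20 replicate 1 these changes were 1.06 and 0.69 (limma adjusted p = 0.00334 and 0.053). With KO P20 replicate 2 as the only KO P20 array they were 1.12 and 0.78. ILMN_1253322, annotated to the RefSeq transcript, was 0.93 ± 0.21 higher and did not pass (limma adjusted p = 0.0691). With age in WT the representative probe rose by 0.43, whereas ILMN_1257135 and ILMN_1212663 fell by 0.61 and 0.52. In KO these 3 probes rose, by 0.75, 0.33 and 0.53. The age change of ILMN_1253322 was -0.56 in WT, without overlap, and 0.10 in KO, and neither passed (limma adjusted p = 0.0901 and 0.811). The transcripts that each probe reads were not resolved here.

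**Figure D5:**
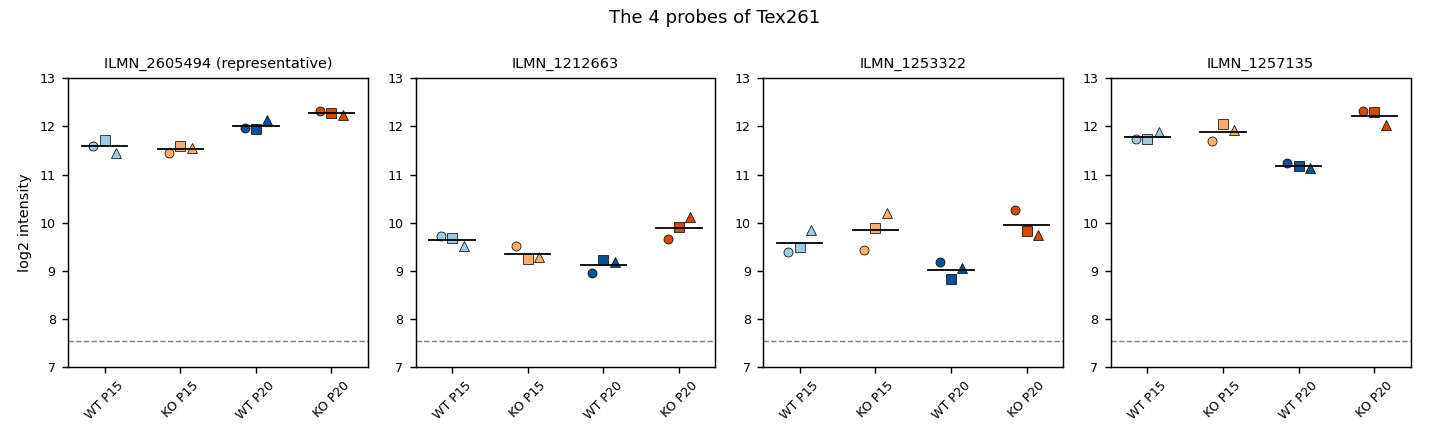
Log2 intensity (vertical axes, shared scale) of the 4 probes of Tex261 by group, with circles, squares and triangles for replicates 1, 2 and 3, bars for means and a dashed line at background. The representative probe is higher at P20 in both genotypes, while in the other 3 probes WT P20 has the lowest group mean.

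Of the 18 genes in no role list, 6 rose and 1 fell with age in WT and 4 rose and 2 fell in KO, where 11.2% of all named genes rose and 16.5% fell in WT, and 13.5% and 21.6% in KO. Spata31d1a, of a multicopy family on chromosome 13, rose by 1.45 in WT and 1.75 in KO, and read 8.87, 9.03 and 9.34 in WT P20 and 9.40, 9.62 and 9.02 in KO P20 (change 0.27, limma adjusted p = 0.595). Its near relatives Spata31d1b and Spata31d1c were above background on 0 arrays and Spata31d1d on 1, and because family members are close in sequence the source of the signal is uncertain. Spata17, a calmodulin-binding protein of the axoneme, rose by 1.38 and 1.39, and its 3 further probes were not above background in a whole group. Tex47 rose by 1.37 in WT (at least 2.45-fold) and 1.05 in KO, with 8.29, 9.04 and 9.13 in WT P20 and 8.30, 8.53 and 8.72 in KO P20. The P20 groups overlapped, at -0.31 (limma adjusted p = 0.595), and the value was -0.57 without WT P20 replicate 1 (limma adjusted p = 0.0376) and -0.15 without WT P20 replicate 3 (adjusted p = 0.849). It did not pass in 24 of 25 alternative settings. Tex45, above background on 0 of 6 arrays at P15, rose by at least 1.22-fold in WT and at least 1.42-fold in KO, and was 0.21 ± 0.05 higher in KO at P20 (WT 7.71, 7.87 and 7.89, KO 7.98, 8.03 and 8.10, limma adjusted p = 0.0711), without overlap. Spata45 rose with age in WT by at least 1.43-fold and did not pass in KO (-0.06), and the difference between the 2 did not pass (-0.75, limma adjusted p = 0.372). Tex13b, an X-linked germ cell gene, fell by 0.64 in each genotype, and its P15 change was -0.23 ± 0.16. Its further, dimmer probe changed with age by -0.13 in WT and -0.15 in KO without passing, and differed by 0.11 at P15. Tex16, also X-linked, fell by 0.66 in KO, with 9.58, 9.36 and 9.85 in WT P15 and 9.64, 10.31 and 9.56 in KO P15, a difference of 0.24 ± 0.20. Without KO P15 replicate 2, the high array, the age change in KO was -0.43 and did not pass (limma adjusted p = 0.101), and the call was lost in 9 of 25 alternative settings. Spata48 rose in WT by 0.25, a call lost in 6 of 25 alternative settings, and its 0.20 in KO did not pass. Tex24 was above background on 6 arrays and Tex13a on 3, and Tex13c1, Tex28, Tex46 and Tex55 on 0. Spata24 of the sperm list had the largest P15 change of all, -0.37 ± 0.35, with KO P15 replicate 1 (10.60) apart from replicates 2 and 3 (9.42 and 9.43). Without replicate 1 it was -0.76 (limma adjusted p = 0.307), and the 2 further Spata24 probes read 0.08 and 0.11 in the other direction.

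The other genes of the pathways these genes work in were given by 32 partners, of which 30 were measured (Brme1 and Dpy19l2 were not). Between genotypes 0 passed at P15 and 0 at P20, though 10 (33.3%) had an unadjusted p under 0.05 at P20, against 15.2% of all named genes, and the median was 0.05, against 0. With age 11 rose and 4 fell in both genotypes, where 11.2% of all named genes rose and 16.5% fell in WT, and 13.5% and 21.6% in KO. The largest rise was of Adam3, the sperm surface protein that TEX101 helps to process, by 4.75 in WT and 5.29 in KO. Catsperd, a subunit of the sperm calcium channel, rose by 2.50 and 3.30, and at P20 was 0.67 ± 0.19 higher in KO (WT 9.85, 10.58 and 10.68, KO 10.83, 11.22 and 11.08, limma adjusted p = 0.151). Ppp3r2, a calcineurin subunit that Spata33 anchors, rose by 4.41 and 4.53. Zpbp and Catsper2 rose by 2.97 and 2.96 in WT. The genes that fell were Rpa2, a subunit of the single-strand DNA binding complex (-0.69 in WT), Rnf31, Las1l and Ubr2.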

How the data were processed

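Gene expression was measured in 12 testis samples in 4 groups of 3, grouped by the labels' titles. The deposited values are linear intensity, which per the submitters' processing notes came from BeadStudio (no version recorded), and the authors' processed values are quantile-normalized intensity, as quantile normalization of the deposited non-normalized intensity matched them to a median log2 difference of 6.59e-05 (maximum 0.0124). The annotation gave 1 symbol to 34885 of 45281 probes and several to 18, and did not list 10378. Background was set on each array as the mode of its log2 values plus 1.645 SD of the values below it.

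Quantile-normalized intensity plus 50 was put on the log2 scale. The fit used limma 3.58.1 under R 4.3.3 on every probe (4 group means, residual degrees of freedom 8, prior 2.14), for KO against WT at each age, the difference between these, and P20 against P15 in each genotype, with Benjamini-Hochberg adjustment across the whole array (threshold 0.05). Errors are standard errors of the fit. The fit was tested on simulated data. Replicate numbers did not pair samples (3 of 18 same-numbered pairs correlated over 0.1). The labels call the samples of a group biological repeats, but nothing says that they came from separate animals. The p-values therefore measure the spread between these samples, which may be in part technical. Precision is limited by having 3 arrays in a group.

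Named with values were genes past the genotype tests, the 12 largest changes at P20 and 6 at P15, the 10 largest rises and 6 largest falls with age in WT, and members of the role lists. The members and lists were chosen with earlier results of these data known. Detection p-values, control probes and slides were not used here. Alternatives were the authors' values, other normalizations, background corrections and offsets, array weights, a trend of variance with intensity, leaving out dim probes, a replicate block, probe means, a minimum fold and leaving out arrays.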

Additional observations from a re-analysis of the deposited data

Results flagged for a closer look

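Further probes of 2 genes passed genotype tests, and drew attention because the counts of genes do not use them. For Spata16, probe ILMN_1236529 was 0.47 higher in KO at P20, as the representative probe was (0.61), and its genotype effect at P20 exceeded that at P15 by 0.45 (limma adjusted p = 0.0478), while the representative probe's difference of 0.67 did not pass (adjusted p = 0.305). The 0.45 kept its call in 6 of 23 alternatives, with an adjusted p of up to 0.352. For Tex261, probes ILMN_1257135 and ILMN_1212663 were 1.04 and 0.77 higher in KO at P20, where the representative probe was 0.27 higher and did not pass. At P20 all 4 Tex261 probes had KO above WT without overlap. The causes of the differences between probes were not tested.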

How the results depend on the processing

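At P15 the count of Spata and Tex genes past the genotype test was 0 in all 25 alternatives. At P20 the count of 2 became 1 with an offset of 16 and 1 in a fit of only the compared groups. It was 4 with dim probes left out, 5 with an intensity trend and 5 with array weights. KO P20 arrays 1 and 3 had the highest epididymis marker sums (2508 and 3060 against 635.9 in replicate 2). Leaving out both leaves 1 KO P20 array, so no counts are given for that fit. Leaving out each array singly gave a count of 1 to 4. With the replicate number as a block it was 1, although the numbers do not pair the samples. The difference between the genotype effects, 0, became 1 with an intensity trend and 1 with the mean over a gene's probes, and 0 to 2 on leaving out an array. The age count in WT, 23, became 15 with a fold of at least 1.5 and 18 to 26 on leaving out an array. The Spata22 change at P15 (-0.29) reversed to 0.01 without KO P15 replicate 3, and ran from -0.56 to 0.01 on leaving out an array, and the Tex261 age change in WT to -0.32 with the mean over its probes, 3 of which have the opposite sign. Over all named genes the P20 count of 269 became 515 with array weights, 153 with the block, 90 with a fold of at least 1.5, and 87 to 357 on leaving out an array. The P15 count of 1 became 65 without KO P15 replicate 1. The difference count of 14 became 5 with cyclic loess, 42 with an intensity trend, 1 with the block, and 2 to 42 on leaving out an array. The age counts of 5288 in WT and 6688 in KO became 2517 and 3470 with a fold of at least 1.5. Where no cause is given, the cause was not tested. The all-gene median genotype change was 0.10 at P15 and 0.05 at P20 under 75th percentile scaling. Spata4 kept its call in 24 of 25 alternatives, the exception being the fit with 1 KO P20 array. Values near 7.53 are at background, which limits the 26 dim genes.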
